A study of Mus musculus with 8 samples.

Results

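C1s1, C1s2 and C1ra are 3 mouse genes for serine proteases of the first complement component. They were taken by name from an array study of kidney cortex. Of 22658 genes tested on the arrays, these 3 were chosen by their values at 50 weeks in the strain SAMR1, where both C1s genes were not well above background on either array. The arrays carry 4 probes with these gene names, and 3 of them, 1 per gene, were well above background in at least 1 group.

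The study compared kidney cortex of male mice of the senescence-prone strain SAMP1 and of its senescence-resistant relative SAMR1. Mice of both strains were taken at 10 and at 50 weeks of age, with 2 mice and 2 arrays per group and 8 arrays in all. No allele, transgene or treatment was named for any group, and a pair of animals per group is what limits each group as a model. RNA was taken from 10 mg of cortex, and 50 ng of it was copied, marked with the dye Cy3 and read in 1 colour on Agilent arrays of 60-base probes.

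Complement is a chain of plasma proteases that marks surfaces and immune complexes for removal. In its classical pathway the recognition protein C1q carries the proteases C1r and C1s. C1r activates itself and then cuts C1s, and C1s cuts C4 and C2, which leads on to cleavage of C3. The mouse genome holds a duplicated pair of these protease genes, C1ra beside C1s1 and C1rb beside C1s2. The liver as well as fibroblasts and epithelial cells of tissues such as the kidney can make C1r and C1s. Which of the gene copies each tissue uses was not examined here.

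The probes lie close together on chromosome 6, at positions given on the mm9 build by the array files. The C1ra probe is at chr6:124473052-124473111 on the plus strand. The C1s1 probe follows at chr6:124480775-124480834 on the minus strand, the C1rb probe at chr6:124525309-124525368 on the plus strand, and the C1s2 probe at chr6:124574742-124574801 on the minus strand. The genes therefore stand in a repeated order in which each C1r gene runs toward the C1s gene beside it. The related gene C1rl, for a C1r-like protease, has its probe at chr6:124460498-124460557 on the plus strand. Whether these probes fall in an exon or a UTR was not analysed here.

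The first 30 bases of the probes are shown because the values of each gene rest on 1 probe, and because the C1s copies are similar enough that a probe can read both.
C1s1: aaagagtctgcatggaggcagggttgatca
C1s2: atcaacagcatggaactctgcatctctaac
C1ra: tctgaccaattgttgataagcactatgatt
C1rb: ccacagcctcagtaccagttccgggattac
C1s1, second probe: ctgccctgacagtttaactgtgcgttgtag
The C1s1 and C1s2 probes were different sequences, with a longest common run of 7 bases over their full 60. The array annotation nevertheless listed RefSeq transcripts of both C1s2 and C1s1 for the C1s2 probe, so the C1s1 and C1s2 values are not independent measures. Such double listings were uncommon, at 958 of 33546 probes with a RefSeq name (2.86%). Whether the C1s2 probe read C1s1 transcripts was not tested.

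The 250 bases before the transcription start are shown for the 3 proteases and for C1rb. The reason is that C1s1, C1s2 and C1ra moved together and C1rb did not over the 8 arrays, which include those that chose the genes. The sequences are the RefSeq ones of the GRCm38.p6 build, written in the direction of the gene. Capitals mark matches, on either strand, to 3 motifs searched: the interferon-gamma-activated site (TTCNNNGAA), the CCAAT box (CCAAT) and the TATA box (TATAAA). For C1s1, which has 2 annotated starts, the one farther upstream was taken.
C1s1, chr6:124542360-124542609, minus strand: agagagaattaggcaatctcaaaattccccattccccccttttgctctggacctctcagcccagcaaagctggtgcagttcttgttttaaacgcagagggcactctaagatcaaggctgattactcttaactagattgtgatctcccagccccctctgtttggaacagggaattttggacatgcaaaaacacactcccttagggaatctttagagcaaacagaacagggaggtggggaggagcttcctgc
C1s2, chr6:124636086-124636335, minus strand: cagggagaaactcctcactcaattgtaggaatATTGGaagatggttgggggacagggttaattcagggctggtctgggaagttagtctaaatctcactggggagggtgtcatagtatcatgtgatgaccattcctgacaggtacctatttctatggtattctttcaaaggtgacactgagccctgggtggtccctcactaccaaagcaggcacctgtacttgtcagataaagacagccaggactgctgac
C1ra, chr6:124512371-124512620, plus strand: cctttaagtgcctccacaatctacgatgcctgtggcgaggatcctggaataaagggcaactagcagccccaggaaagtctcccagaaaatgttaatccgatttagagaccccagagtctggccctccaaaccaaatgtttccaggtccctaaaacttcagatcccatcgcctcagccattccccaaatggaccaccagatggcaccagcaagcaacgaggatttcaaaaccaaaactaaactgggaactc
C1rb, chr6:124570180-124570429, plus strand: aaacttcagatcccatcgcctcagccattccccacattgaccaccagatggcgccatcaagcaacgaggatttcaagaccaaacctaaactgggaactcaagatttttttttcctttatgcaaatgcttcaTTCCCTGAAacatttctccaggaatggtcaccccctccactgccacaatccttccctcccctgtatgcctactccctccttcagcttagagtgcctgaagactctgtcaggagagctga
C1s1 and C1ra held none of the 3 motifs in this window. C1s2 held 1 CCAAT box, a motif present in 33.8% of 32851 promoter windows of this length. C1rb held 1 interferon-gamma-activated site, present in 7.02% of them, whereas the TATA box occurred in 12.4% and in none of these 4 windows. The C1ra and C1rb windows shared a stretch of 99 aligned bases with 93 identical (93.9%), which ends at the start of C1ra and lies at the far end of the C1rb window. The best local alignment of the C1s1 and C1s2 windows covered 35 bases.

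Values below are log2 processed signal minus the 75th percentile of the array, so a level of 0 is the signal that 1 probe in 4 exceeds. Processed signal is the scanner software's background-subtracted intensity. A probe is called well above background where the scanner software marked it so. Levels are compared between groups for the same probe and not between probes.

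C1s1 encodes the protease that cuts C4 and C2. Its level in SAMR1 was 1.10 and 0.25 at 10 weeks and -5.36 and -6.02 at 50 weeks. In SAMP1 it was 0.84 and 1.07 at 10 weeks and 0.54 and 1.11 at 50 weeks. The 2 SAMR1 arrays at 50 weeks stood alone below the other 6, and the other 3 groups overlapped. In processed signal units, C1s1 read 3.23 and 2.06 on those 2 arrays against 173 to 354 on the other 6.

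C1s2, the second gene for this protease, gave 0.99 and 0.43 in SAMR1 at 10 weeks and -5.49 and -4.91 at 50 weeks. The SAMP1 levels were 0.76 and 1.00 at 10 weeks and 0.50 and 1.15 at 50 weeks. As with C1s1, the 2 arrays of old SAMR1 mice were apart from the rest, and neither was well above background.

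C1ra, the gene for the protease that activates C1s, was at 1.03 and 0.65 in SAMR1 at 10 weeks and at -0.44 and -0.18 at 50 weeks. In SAMP1 it was at 0.94 and 1.24 at 10 weeks and 0.89 and 1.28 at 50 weeks. Unlike the C1s genes, C1ra stayed well above background on 2 of 2 SAMR1 arrays at 50 weeks, although both of those arrays were lower than the other 6.

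**Figure D1:**
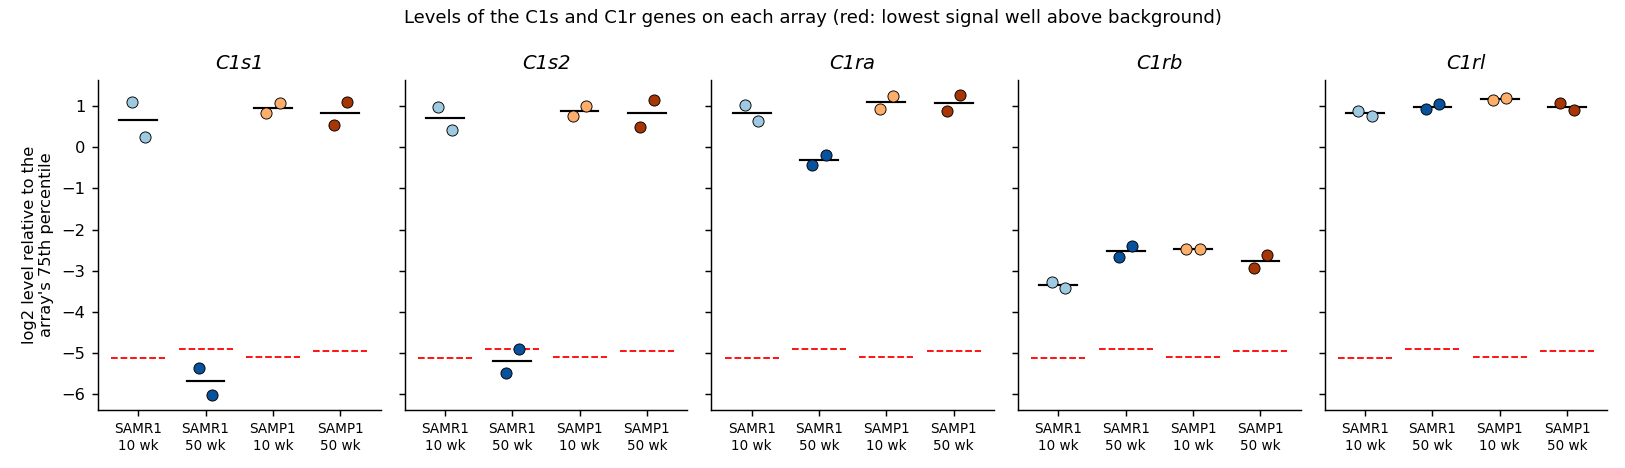
Each point is 1 array, the black bar is the mean of the 2 arrays of a group, and the red dashed line is the mean of the lowest signals marked as well above background on those arrays. The vertical axis is the log2 level relative to the array's 75th percentile, in 4 groups for each of 5 genes. C1s1 and C1s2 lie at or under the red line in SAMR1 at 50 weeks, at means of -5.69 and -5.20, while C1ra is at -0.31, C1rb at -2.53 and C1rl at 0.99.

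Ordered by group mean, C1s1 ran from -5.69 ± 0.46 (SD, n = 2) in SAMR1 at 50 weeks to 0.67 ± 0.60 in SAMR1 at 10 weeks, 0.83 ± 0.40 in SAMP1 at 50 weeks and 0.96 ± 0.16 in SAMP1 at 10 weeks. C1s2 had the same order, at -5.20 ± 0.41, 0.71 ± 0.40, 0.82 ± 0.46 and 0.88 ± 0.17. C1ra ran from -0.31 ± 0.18 in SAMR1 at 50 weeks to 0.84 ± 0.27 in SAMR1 at 10 weeks, with both SAMP1 groups at 1.09 ± 0.27 (50 weeks) and 1.09 ± 0.22 (10 weeks). For all 3 genes the upper 3 groups differed by less than the spread between their arrays, and the one step beyond the spread was that to SAMR1 at 50 weeks.

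The values that chose these genes give the following differences, which are a description and carry no test. With age in SAMR1, C1s1 was lower by at least 47.9-fold and C1s2 by at least 49.1-fold. These folds are bounds, because each sets the mean of the 10-week arrays against the lowest signal that counted as well above background on each 50-week array, or the probe's own signal where that was higher. C1ra was 2.21-fold lower. The fitted log2 differences were -6.36 for C1s1, -5.91 for C1s2 and -1.15 for C1ra. Among all genes tested, 0.967% were called for age in SAMR1 at an adjusted p under 0.05.

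Set against old SAMP1 mice, the gap was of like size. At 50 weeks C1s1 was at least 53.3-fold and C1s2 at least 53.1-fold higher in SAMP1 than in SAMR1, and C1ra was 2.63-fold higher. The log2 differences were 6.52, 6.02 and 1.39, in a comparison that called 5.5% of all genes. The age difference in SAMP1 minus that in SAMR1 was 6.24 for C1s1, 5.85 for C1s2 and 1.14 for C1ra, where 0.00883% of all genes were called. These comparisons share the SAMR1 50-week arrays with the first one, so they add no separate evidence.

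The size of the log2 difference depended on the background correction. Its direction did not change, which is no separate evidence because these arrays chose the genes. With a normexp correction of the unprocessed spot signal and an offset of 50, which lifts the dimmest signals, the age difference in SAMR1 was -2.41 for C1s1, -2.17 for C1s2 and -0.88 for C1ra. Within slide row 1 the C1s1 difference was -6.46 and within row 2 it was -6.27. For C1s2 the values by row were -6.48 and -5.34, and for C1ra -1.47 and -0.82. Every 10-week array lay in slide column 1 or 2 and every 50-week array in column 3 or 4, so the effects of age and of column cannot be told apart.

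Both remaining comparisons left out the SAMR1 50-week arrays and were tested with limma, with adjustment over all 22658 genes. With age in SAMP1, C1s1 differed by -0.13 ± 0.36 (SE) with a 95% interval of -0.99 to 0.73 (limma adjusted p = 0.923). C1s2 differed by -0.06 ± 0.31, with an interval of -0.80 to 0.69 (limma adjusted p = 0.962). C1ra differed by -0.01 ± 0.21, with an interval of -0.51 to 0.49 (limma adjusted p = 0.994). None of the 3 was called, at an adjusted or an unadjusted p under 0.05, in a comparison that called 1.07% of all genes. A difference in SAMP1 as large as the 47.9-fold bound in SAMR1 lies outside these intervals, while differences within the intervals were not detectable with 2 arrays per group.

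Young mice of the strains were compared next, although SAMR1 at 10 weeks was the high side of the contrast that chose the genes. At 10 weeks C1s1 was 0.28 ± 0.36 (SE) higher in SAMP1, with an interval of -0.58 to 1.14 (limma adjusted p = 0.813). The C1s2 difference was 0.17 ± 0.31, with an interval of -0.58 to 0.91 (limma adjusted p = 0.877). For C1ra it was 0.25 ± 0.21, with an interval of -0.25 to 0.75 (limma adjusted p = 0.683). Again none of the 3 was called, adjusted or unadjusted, against 3.38% of all genes.

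The 3 genes varied together within groups as well as between them. Over the 8 arrays the levels of C1s1 and C1s2 correlated at r = 0.993, those of C1s1 and C1ra at 0.960 and those of C1s2 and C1ra at 0.970. Without the SAMR1 50-week arrays the same correlations over 6 arrays were 0.964, 0.912 and 0.922. In each of the 3 groups other than SAMR1 at 50 weeks the array that was higher for C1s1 was also the higher for C1s2 and C1ra, and in all 3 it was the array in slide row 1, whose part was not tested. In SAMR1 at 50 weeks C1s1 was higher on replicate 6 and the others on replicate 12. These values describe 8 arrays that share a slide, and the C1s1 and C1s2 probes share listed transcripts.

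A second C1s1 probe gave no second measure. It was not well above background on any of the 8 arrays, with processed signals of 1.07 to 3.86, and so is not informative about the difference between groups.

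C1rb, the duplicate of C1ra, did not follow the 3 genes over the 8 arrays (r = -0.364 with C1s1 and -0.170 with C1ra). Without the SAMR1 50-week arrays, which chose the genes, these correlations were 0.552 and 0.691 over 6 arrays. The C1rb levels were -3.27 and -3.43 in SAMR1 at 10 weeks and -2.66 and -2.39 at 50 weeks. In SAMP1 they were -2.48 and -2.47 at 10 weeks and -2.93 and -2.61 at 50 weeks. All 8 values were well above background. In SAMR1 the 50-week arrays were the higher ones, by 0.82 ± 0.15 (SE, limma adjusted p = 0.0870), and in SAMP1 the 50-week arrays were lower by 0.30 ± 0.15 (limma adjusted p = 0.548).

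At 10 weeks C1rb was higher in SAMP1 by 0.87 ± 0.15 (limma adjusted p = 0.0330). This call was lost when any 1 of the 4 arrays at 10 weeks was left out (highest adjusted p = 0.187) and with normexp (0.0965), quantile normalization (0.0616), slide row in the fit (0.0719) or no filter on dim probes (0.0743), and when its 2 probes were averaged. The age by strain term of C1rb was -1.12 ± 0.21 and was not called (limma adjusted p = 0.481). A further C1rb probe, whose listed transcripts include C1ra, read -3.94 and -4.74 in SAMR1 at 10 weeks and -3.44 and -3.33 at 50 weeks, so its older SAMR1 arrays were also the higher ones. C1rl was near constant, with levels of 0.77 to 1.19 on the 8 arrays and no call in any of the 5 comparisons.

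The rest of the chromosome 6 neighbourhood was compared by probe position. Within 1 Mb of the 3 genes on each side 48 other genes were tested, and 22 of them lay within 250 kb. For age in SAMR1, where C1s1 and C1s2 differed by about 6 log2 units, the 48 neighbours ranged from -0.57 (Cdca3) to 0.82 (C1rb) with a median of 0.01, and limma called 0 of them (5 at an unadjusted p under 0.05). With 0.967% of all genes called, a count of 0 among 48 is near the background. The median over all genes tested was -0.01. None of the 48 differed by more than 1 log2 unit.

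Before C1rl, Cd163, a scavenger receptor of macrophages, differed by -0.39 with age in SAMR1, Pex5, a peroxisome import receptor, by -0.12, Clstn3 by 0.19 and Gm44096 by 0.19. Beyond C1s2 the first genes were Lpcat3, a phospholipid acyltransferase, at -0.05, Emg1 at 0.09, the prohibitin Phb2 at 0.02 and the phosphatase Ptpn6 at 0.003. None of these was called in either strain. Next in order, 2010010I01Rik, Grcc10, Eno2, Spsb2, Usp5, P3h3, Gpr162 and Cd4 lay between -0.12 and 0.06. Atn1 was at 0.43, Tpi1 at 0.21, Lrrc23 at -0.22 and Cdca3 at -0.57, and none of them was called either.

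**Figure D2:**
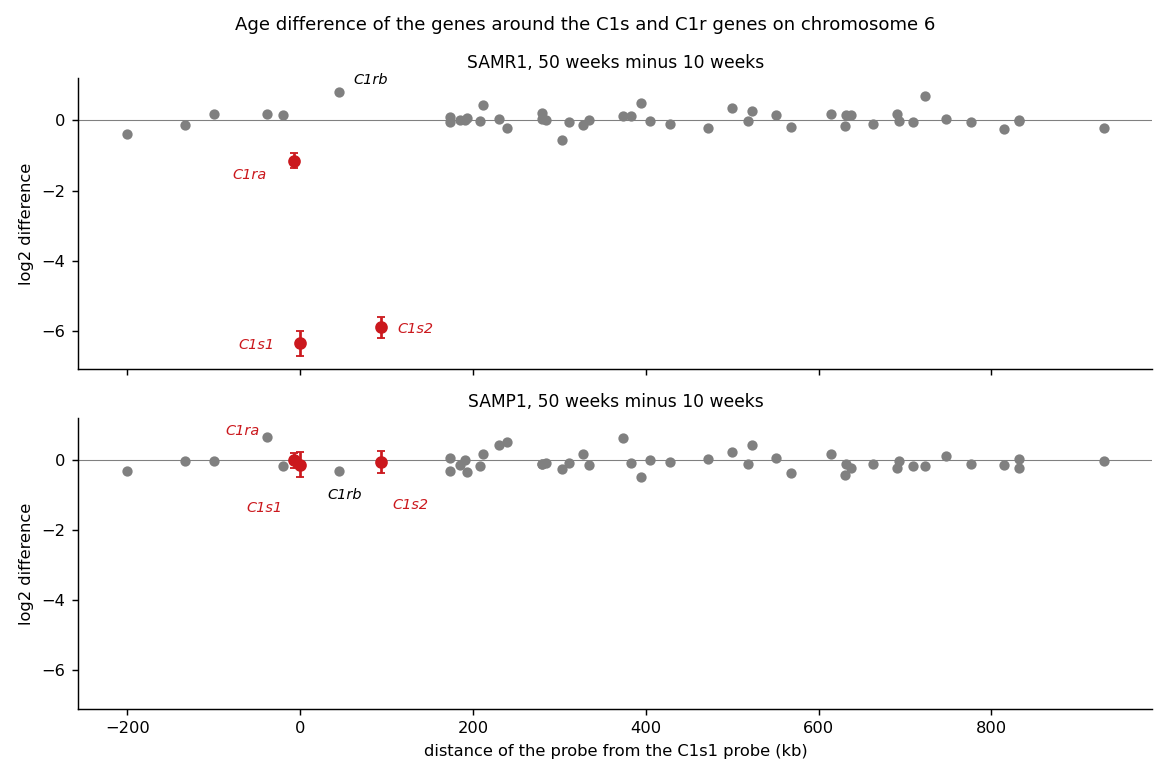
Each point is 1 gene, placed by the distance in kb of its probe from the C1s1 probe (horizontal axis) and by its log2 difference between 50 and 10 weeks (vertical axis), in SAMR1 above and in SAMP1 below. The 3 proteases are red with bars of 1 SE, and the 48 neighbours are grey. In SAMR1 only C1s1 (-6.36), C1s2 (-5.91) and C1ra (-1.15) of these genes lie below -1, and in SAMP1 all 3 lie near 0.

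For age in SAMP1 the neighbours ranged from -0.48 to 0.67, with 0 called by limma (4 at an unadjusted p under 0.05), against 1.07% of all genes. At 10 weeks C1rb was the 1 neighbour called between the strains, against 3.38% of all genes. At 50 weeks 0 neighbours were called (6 unadjusted), against 5.5% of all genes. For the age by strain term 0 were called (3 unadjusted), against 0.00883% of all genes. Single arrays changed some of these counts. Without replicate 1 of SAMP1 at 50 weeks A230083G16Rik was called for age in SAMP1 (-1.16), and A230083G16Rik (-1.30) and Gm24175 (-0.81) for strain at 50 weeks. Without replicate 4 of that group Gm44096 was called in both (2.05 and 2.20), and without replicate 6 of SAMR1 at 50 weeks Acrbp was called for strain at 50 weeks (0.74). These genes were named after their values were seen. Cd163 differed between the strains by 1.47 ± 0.58 and 1.54 ± 0.58 (SE) at 10 and 50 weeks, without a call. It was well above background on 1 of 2 arrays in each SAMR1 group, and it was called at both ages with slide row in the fit (adjusted p = 0.0417 and 0.0272).

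The other complement genes were set beside the proteases from a list. Of 49 listed genes besides the 3 proteases, 39 were measured and 10 (Hc, C6, C8b, C9, Cfd, Fcna, Fcnb, Colec10, C5ar1 and Vsig4) did not pass the filter on dim probes. With age in SAMR1, 4 of the 39 rose and 0 fell, where 0.967% of all genes were called (187 higher and 32 lower), and the median was 0.11 against -0.01 over all genes. With age in SAMP1, 4 rose and 0 fell, where 1.07% of all genes were called (209 higher and 33 lower), with a median of 0.12 against -0.03. C4bp and C3ar1, a receptor for a fragment of C3, were also well above background on all 6 other arrays and on neither array of old SAMR1 mice. Unlike the C1s genes they were near background throughout. Their means in the other groups were -4.65 to -4.11 and -4.37 to -4.20. The lowest signal that counted as well above background was -5.20 to -4.90. Neither was called with age in SAMR1 (limma adjusted p = 0.287 and 0.304). C3ar1 read -4.65 and -3.76 in SAMR1 at 10 weeks and -5.17 and -5.01 at 50 weeks. C4bp read -4.79 and -4.51 in young SAMR1 mice and between -6.78 and -5.39 in old ones.

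C1q, the recognition protein that C1r and C1s bind, is made of 3 chains. With age in SAMR1, C1qa differed by 0.42, C1qb by 0.36 and C1qc by 0.22, and in SAMP1 by 0.11, 0.21 and 0.33, with no call. Between the strains C1qb was higher in SAMP1 by 0.85 ± 0.14 at 10 weeks (limma adjusted p = 0.0306) and by 0.70 ± 0.14 at 50 weeks (0.0443). C1qc was higher by 0.93 ± 0.17 (0.0448) and 1.04 ± 0.17 (0.0227), whereas C1qa differed by 0.77 and 0.47 and was not called. Each of these 4 calls was lost in 3 or more of the 8 fits that leave out 1 array. Serping1, the inhibitor that removes C1r and C1s from C1, differed by -0.42 ± 0.27 with age in SAMR1 and by 0.12 ± 0.27 in SAMP1, and was not called.

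Genes named after C4 and C2, the substrates of C1s, were measured. Whether C1s cuts the C4a product was not examined. C4a rose with age by 1.31 ± 0.13 in SAMR1 (limma adjusted p = 0.0111) and by 1.24 ± 0.13 in SAMP1 (0.0147). C4b rose by 1.30 ± 0.15 (0.0182) and 1.37 ± 0.15 (0.0158). C4a and C4b are close copies, so their probes may share signal. In the 8 fits without 1 array, C4a kept its call in 4 for SAMR1 and 5 for SAMP1 and C4b in 4 for each. With the level of the haemoglobin gene Hba-a1 as a covariate, an alternative chosen after seeing the data, all 4 calls were lost (adjusted p 0.623 and 0.0849 for C4a, 0.752 and 0.0923 for C4b), and the C4b call in SAMR1 also without a filter (0.0528) or with slide row (0.0543). C2 differed by 0.17 and 0.14 and was not called with age in either strain. C3, the next component, rose in SAMP1 by 1.17 ± 0.16 (limma adjusted p = 0.0303) and differed by 0.30 in SAMR1 without a call, and the difference between these changes was not called (0.87 ± 0.22, adjusted p = 0.630). The C3 call was kept in 1 of the 8 fits without 1 array (highest adjusted p = 0.148) and lost without a filter (0.0781), with slide row (0.0681) and with the Hba-a1 covariate (0.198).

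Masp2, the protease of the lectin pathway that does the work of C1s there, moved in the opposite direction to C1s1 in SAMR1. Its levels in SAMR1 were -2.10 to -1.97 at 10 weeks and 0.28 to 0.49 at 50 weeks, a rise of 2.43 ± 0.11 (limma adjusted p = 0.000689). In SAMP1 it rose by 1.65 ± 0.11 (0.00429). Both calls held in all 8 fits that leave out 1 array, the SAMR1 call was lost with the Hba-a1 covariate (adjusted p = 0.0806), and the difference between the rises was not called (-0.78 ± 0.16, adjusted p = 0.519). Masp1, another protease of that pathway, differed by -0.82 in SAMR1 and -0.05 in SAMP1 and was not called. The regulator Cfi rose in SAMR1 by 1.54 ± 0.23 (limma adjusted p = 0.0440), a call lost whenever any 1 of the 8 arrays was left out, while the regulator C4bp differed by -1.44, without a call, and was well above background on no 50-week SAMR1 array.

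**Figure D3:**
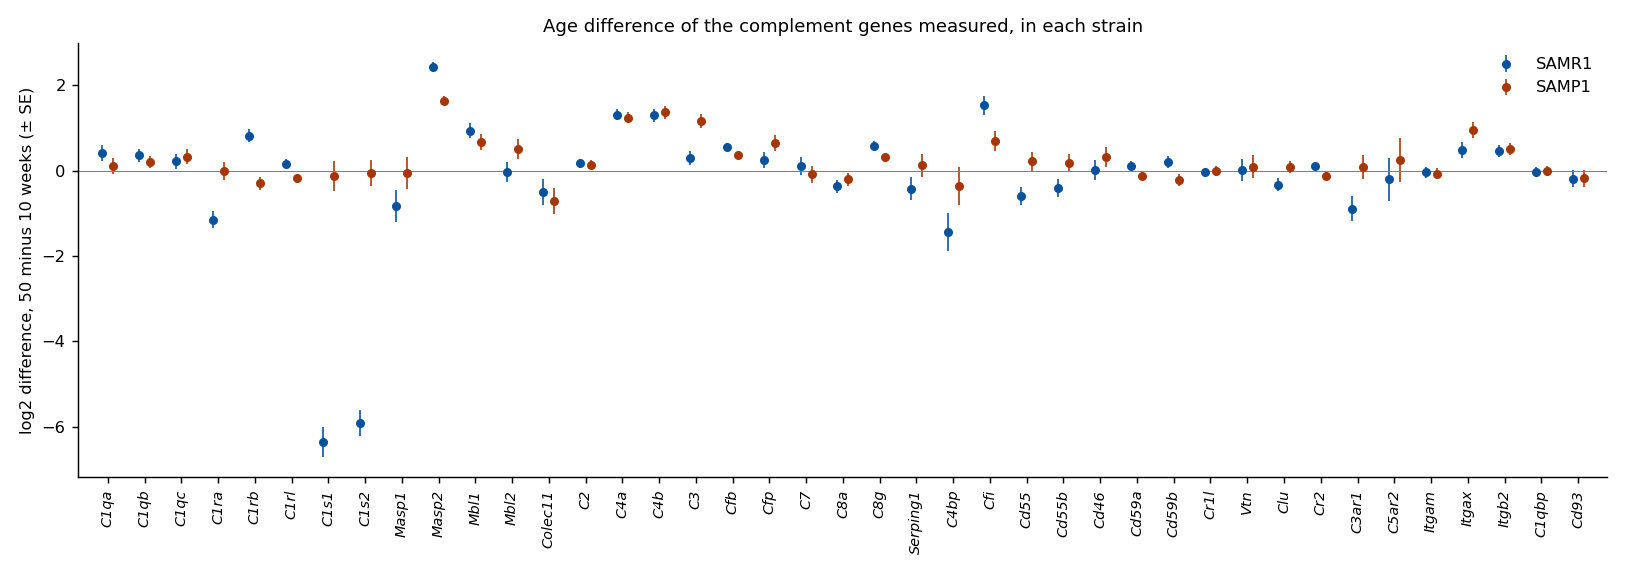
The points give the log2 difference between 50 and 10 weeks (vertical axis) of 38 other complement genes measured and of C1ra, C1s1 and C1s2, in SAMR1 (blue) and in SAMP1 (brown), with bars of 1 SE. C1s1 and C1s2 in SAMR1 lie near -6 and the other genes between -1.44 (C4bp) and 2.43 (Masp2).

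Between strains at 10 weeks 7 of the 39 complement genes were called, against 3.38% of all genes. C1qb, C1qc, C1rb, Mbl1 and Vtn were higher in SAMP1 and C4a and C8g were lower. At 50 weeks 9 were called, against 5.5% of all genes, with C1qb, C1qc, C3, Mbl1 and Vtn higher and C2, C4a, C8g and Masp2 lower. Vtn was near background in SAMR1, well above it on 1 of 2 arrays at each age. Both Vtn calls were lost with normexp (limma adjusted p = 0.245 at 10 weeks and 0.259 at 50 weeks). Mbl1, a lectin that recruits the MASP proteases, was higher in SAMP1 by 1.93 ± 0.18 at 10 weeks (limma adjusted p = 0.00361) and by 1.67 ± 0.18 at 50 weeks (0.00508), and kept both calls in all 8 fits without 1 array. The 50-week call was lost with the Hba-a1 covariate (adjusted p = 0.181). For the age by strain term limma called 0 of 39 (6 at an unadjusted p under 0.05), against 0.00883% of all genes.

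The complement counts depended on single arrays. For age in SAMR1 the count of 4 was 1 without any 1 of the 4 SAMR1 arrays, which left Masp2. For age in SAMP1 the count of 4 was 1 without replicate 4 of SAMP1 at 10 weeks and 2 without replicate 6 or 12 of SAMR1 at 50 weeks or replicate 4 of SAMP1 at 50 weeks. At 10 weeks the count of 7 was 1 without any 1 of the 4 arrays at that age and 4 without replicate 6 or 12 of SAMR1 at 50 weeks. At 50 weeks the count of 9 was 4 and 5 without replicates 6 and 12 of SAMR1, and 5 and 2 without replicates 1 and 4 of SAMP1 at that age.

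Cell type markers were set beside these values, since in pieces of tissue fewer cells of a type and less RNA per cell cannot be told apart. Kidney markers were present on every array, at 10 of 10 for the proximal tubule and 10 of 10 for other parts of the cortex. The summed proximal tubule level ran from 2205 to 2287 in SAMR1 at 10 weeks and from 2249 to 2457 at 50 weeks, on a linear scale where the 75th percentile is 1. In SAMP1 it ran from 2180 to 2339 and from 2154 to 2349. The sum of the other cortex markers was lowest on the arrays of old SAMR1 mice, at 424 and 488 against 495 to 562 on the other 6. Umod was the brightest of them, with a log2 mean of 8.46 in old SAMR1 mice and 8.68 to 8.73 in the other groups. As a list they did not shift with age in SAMR1: 5 were higher and 5 lower, with a median of -0.03 and 0 called, against 0.967% of all genes. The part of these cells in the C1s and C1r differences was not tested.

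Fibroblast and stromal markers, from cells known to make C1r and C1s, were lower in old SAMR1 mice. All 12 had a negative age difference in SAMR1, with a median of -0.69 (8 at an unadjusted p under 0.05). Of these, 1 fell at the threshold, the collagen gene Col3a1 (-1.12 ± 0.16, limma adjusted p = 0.0440), where 0.967% of all genes were called. In SAMP1 9 of 12 were negative, with a median of -0.34 and no call (2 at an unadjusted p under 0.05), against 1.07% of all genes. At 50 weeks all 12 were higher in SAMP1 than in SAMR1, with 1 called (10 unadjusted), against 5.5% of all genes. The summed stromal level was 56.9 to 70.2 in SAMR1 at 10 weeks, 34.3 to 45.8 at 50 weeks, 75.4 to 76.8 in SAMP1 at 10 weeks and 52.2 to 67.5 at 50 weeks. Of the 12 markers 11 remained well above background on both arrays of old SAMR1 mice, and Dpt did not. With age in SAMR1 the 12 markers differed by -1.38 (Dpt) to -0.05 (Pi16). C1ra differed by -1.15, within this range. C1s1 and C1s2, lower by at least 47.9-fold and 49.1-fold, were far beyond it. The Dpt value rests on signals near background at 50 weeks. The part of stromal cells in the C1s and C1r differences was not tested.

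**Figure D4:**
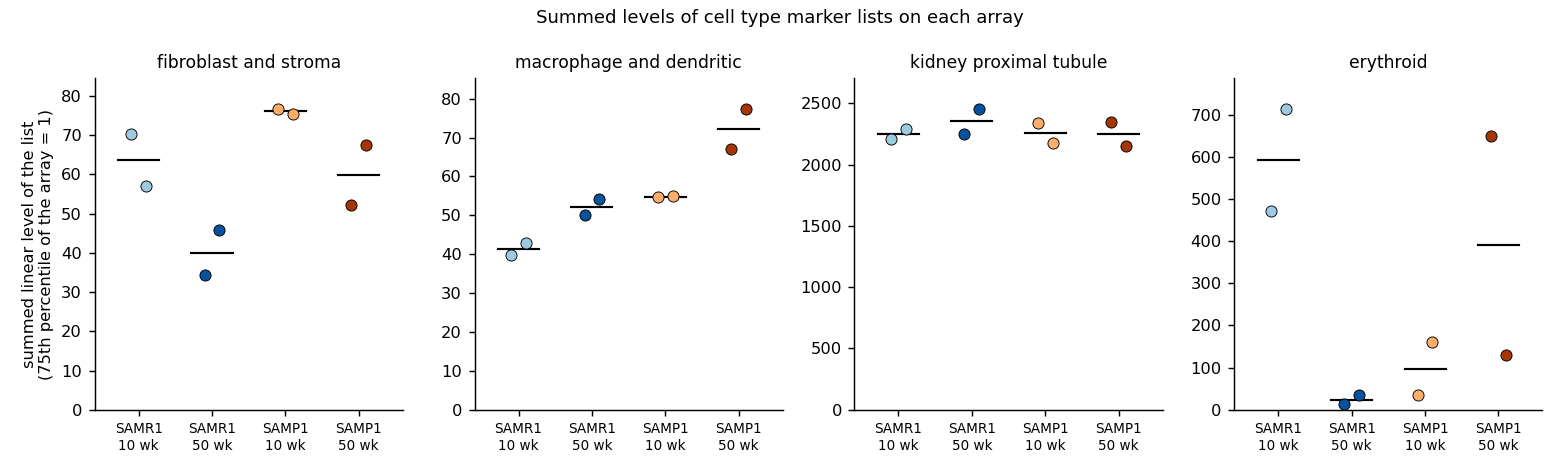
Each point is 1 array and each bar the mean of the 2 arrays of a group. The vertical axis is the sum of the linear levels of the measured markers of a list, with the array's 75th percentile as 1, from 0 upward and with its own scale in each of 4 panels. The stromal sum of the SAMR1 arrays at 50 weeks (34.3 and 45.8) is below that of the other 6 arrays, and the erythroid sum varies widely within and between groups.

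Of the remaining lists, the macrophage and dendritic sum was 39.7 to 42.8 and 50.0 to 54.3 in SAMR1 at 10 and 50 weeks, and 54.6 to 55.0 and 67.1 to 77.5 in SAMP1. Endothelial markers summed to 42.4 to 56.6 over the 8 arrays. Hepatocyte markers, 5 of 8 measured, summed to 281 to 367. Most of this sum came from Cyp2e1 and Ttr, with log2 group means of at least 7.65 and 6.18. The albumin gene Alb had group means of -1.96 to -1.14, and the listed genes Apoa1, Ahsg and Fgb did not pass the filter. Whether the sum reflects liver cells was not tested. Of 8 adipocyte markers 2 were measured (Fabp4 and Lep), and the defining genes Adipoq and Plin1 did not pass the filter. Erythroid markers, 6 of 8 measured, summed to 472 to 715 and 12.9 to 34.2 in SAMR1 at 10 and 50 weeks and to 33.8 to 160 and 130 to 651 in SAMP1. Both arrays with the lowest C1s levels thus had low erythroid sums. Replicate 4 of SAMP1 at 10 weeks also had a low erythroid sum (33.8), with C1s1 at 0.84 and C1s2 at 0.76. The part of blood content in the C1s and C1r differences was not tested.

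Loss of detection on the arrays of old SAMR1 mice was then counted over all genes. In all 51 genes were well above background on the other 6 arrays and on neither of these, against 10, 18 and 40 for the same count with SAMR1 at 10 weeks, SAMP1 at 10 weeks and SAMP1 at 50 weeks as the group without signal. C1s1 and C1s2 had the lowest age differences of the 51. The other 49 ran from -1.82 to -0.09 with a median of -0.86. The lowest of these were Igsf10 (-1.82), Gria4 (-1.60) and Slc10a6 (-1.48), named after their values were seen. Of the 49 other genes 4 lay on chromosome 6, which holds 5.45% of the genes tested, and none of the 48 neighbours was among them. C3ar1 was among these 4, with its probe at chr6:122798222-122798281. This is outside the window of 1 Mb but inside that of 2 Mb used as an alternative. The ranks of C1s1 and C1s2 restate the choice of the genes and rest on signals near background.

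Genes with a like pattern were sought among 4836 genes whose levels spanned at least 1 log2 unit, by Pearson correlation over the 8 arrays with the mean of C1s1 and C1s2. C1ra had r = 0.967. This is a description, since the profile is set by the SAMR1 50-week arrays that chose the genes. The 5 highest other genes were Syt13 (0.964), BC035044 (0.961), Nek2 (0.946), an unnamed transcript on chromosome 7 (0.946) and LOC115486128 (0.944). BC035044 has its probe at chr6:128829593-128834999, outside the 1 Mb window around the C1s genes. Syt13, a synaptotagmin, was at -1.64 and -1.58 in SAMR1 at 10 weeks, -3.03 and -2.99 at 50 weeks and -2.10 to -1.37 in SAMP1. Their likeness rests on the same 2 arrays, and their spans of 1.08 to 1.67 were far under the more than 6 log2 units of the C1s genes.

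Of the 5 genes with the lowest correlation, all passed the filter through SAMR1 at 50 weeks, the group that sets the profile, so their pattern follows from how they were sought. All were well above background on both arrays of old SAMR1 mice and on none of the other 6. They were AY208318 (-0.990), Cnpy1 (-0.987) and 3 Ensembl transcripts without a name in the tables used. The lowest was ENSMUST00000103394.1 (-0.996), whose probe is at chr6:70384946-70385004, far outside the 1 Mb window around the C1s genes. Its levels were -1.78 and -1.70 in SAMR1 at 50 weeks and between -7.48 and -7.23 on the other arrays. The other 2 transcripts have their probes at chr6:67790101-67790160 and chr6:68784840-68784899, also far outside that window.

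As to the arrays themselves, 61.4% to 64.4% of spots were well above background and the median processed signal was 15.3 to 19.4, and no spot was saturated. Arrays of 1 group correlated across genes at 0.993 to 0.995 and those of different groups at 0.974 to 0.987. Beyond the strain, sex and age stated at the start, the labels give only a replicate number. The p-values therefore measure the spread between these arrays.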

How the data were processed

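Messenger RNA was measured on 8 one-colour arrays on 1 slide. The processed spot intensity was deposited as scanner output of Agilent Feature Extraction 12.0.3.1, background-subtracted and corrected for trends within each array, per the file headers and the submitters' processing notes. The mean and background intensities were deposited without such correction, per the file headers. The yes-or-no marks for outliers, saturation and signal well above background were deposited with them. A value table on the log2 scale was deposited by the authors too. Its columns matched the values used here after centring each probe, at r = 0.9991 to 0.9994 with column medians of -0.048 to 0.059, which settled its scale, centring and direction. It served as an alternative.

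Log2 processed intensity of the 56605 probes that were not controls was averaged over spots of a probe without outliers, and the array's 75th percentile over probes was subtracted. A probe was kept (35375 in all) if 1 group or more had it well above background on each of its 2 arrays, and a gene was represented by its brightest kept probe. Names came from a GRCm38.p6 table for 35405 probes matched by accession, and 21200 probes kept the name in the file.

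The 22658 genes were fitted with limma 3.58.1 (lmFit and eBayes, 2-sided) in R 4.3.3, with a coefficient per group, 4 residual and 2.36 prior degrees of freedom. Adjusted p-values were computed by Benjamini-Hochberg across all genes, with a threshold of 0.05, and code was tested on simulated data. Every comparison holding the SAMR1 50-week arrays is a description for the 3 proteases. The number of arrays limits the precision. Alternatives changed background correction, scaling, filter, probe choice, arrays in the fit, slide row, window and covariate. The 3 genes and all gene lists were chosen with earlier results of these data known. The genes named were the 3 proteases and the C1 partners, neighbours within 250 kb, called genes of the window and the complement list, and the 5 genes highest and the 5 lowest in likeness. The values of 1 complement gene are not reported here, though it stays in the counts.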

Additional observations from a re-analysis of the deposited data

Results flagged for a closer look

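The transcript ENSMUST00000103394.1 was singled out because its fitted age differences in the strains lay far apart. The age difference in SAMP1 minus that in SAMR1 was -5.52 on the log2 scale. This value is a description without support of its own. The transcript was sought by its low correlation with C1s1 and C1s2, and it passed the filter on dim probes through SAMR1 at 50 weeks alone. In the other 3 groups it was well above background on no array, so the fitted value depends on signals near background. In SAMR1 it was at least 10.4-fold higher at 50 than at 10 weeks. No cause was tested.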

How the results depend on the processing

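Neither tested comparison called any of C1s1, C1s2 and C1ra under any alternative (lowest adjusted p 0.820 with age in SAMP1 and 0.493 between young mice), and their differences in the comparisons with the SAMR1 50-week arrays kept their direction under all of them. The kept direction is no separate evidence, because those arrays chose the genes. Values that moved are listed here, and the cause was not tested. With normexp, the differences of C1s1, C1s2 and C1ra were -2.41, -2.17 and -0.88 with age in SAMR1, 2.52, 2.24 and 1.08 between old mice, and 2.29, 2.12 and 0.86 for age by strain. With the Hba-a1 level as a covariate, an alternative chosen after seeing the data, C1s1 was at -7.26, 7.23 and 7.48. Without 1 array, C1s1 ran from -6.79 to -5.94 for age in SAMR1, from 6.19 to 6.84 for strain at 50 weeks and from 5.81 to 6.66 for age by strain.

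Counts of neighbours called were, under normexp, 1 for age in SAMR1 (Atn1), 0 for strain at 10 weeks and 2 for strain at 50 weeks (Gpr162 and Pianp). Strain at 50 weeks gave 1 with quantile normalization and with the 75th percentile over detected probes (both Gpr162). It also gave 1 with averaged probes (Pianp), with slide row (Cd163) and in a window of 2 Mb (Clec4n, higher in SAMP1 by 2.70). Strain at 10 weeks gave 0 with quantile normalization, no filter, averaged probes and the Hba-a1 covariate. Slide row kept that count at 1 with Cd163 in place of C1rb. Without 1 array the counts ran from 0 to 1 for age in SAMP1 and strain at 10 weeks and from 0 to 2 for strain at 50 weeks.

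Counts of complement genes called were 4 for strain at 10 weeks with quantile normalization. Without a filter they were 2 for age in SAMR1 and 2 and 3 between the strains at 10 and 50 weeks. With only the 4 arrays compared they were 1 for age in SAMP1 and 3 for strain at 50 weeks, and with slide row 2 for age in SAMR1 and 3 between young mice. With the Hba-a1 covariate they were 0, 1, 1 and 0 for age in SAMR1, age in SAMP1, strain at 10 and strain at 50 weeks. Without 1 array they ran from 1 to 3 for either age comparison, from 1 to 5 at 10 weeks and from 2 to 7 at 50 weeks.

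Over all genes, age in SAMR1 called 219 (85.4% higher), 397 with normexp (68.8% higher), 129 without a filter and 13 with the Hba-a1 covariate. Age in SAMP1 called 242, 147 without a filter, 42 with its 4 arrays alone and 56 with the covariate. Strain called 766 and 1246 at 10 and 50 weeks, 498 and 694 with 4 arrays, 166 and 96 with the covariate, and 807 at 50 weeks without a filter. Age by strain called 2, and 17 with normexp, 4 with quantile normalization, 1 with detected probes or without a filter, and 0 with the covariate. Scores for another kept probe could not be had, since C1s2 and C1ra have 1 probe and the second C1s1 probe was not kept. No paired analysis was possible because compared groups share fewer than 2 replicate numbers. The number of arrays and signals near background limit the C1s folds to bounds.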
